A study of Mus musculus with 8 samples.

Results

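The lysosome set comprised 40 genes that encode lysosomal proteases, other hydrolases, membrane proteins, lipid-handling proteins, subunits of the proton pump and regulators. Its members were chosen by gene symbol, and all 40 were among the 21848 genes of the count matrices. They were followed across the cell classes of the mouse cortex after photothrombotic (PT) stroke, and between control and fibrinogen-depleted mice.

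Lysosomes are the acidic compartments in which cells break down proteins, glycans, lipids and engulfed material. Phagocytes such as microglia and macrophages carry many of them, since they clear myelin, dead cells and fibrin after brain injury. The transcription factor TFEB switches on many lysosomal genes through a short palindromic promoter motif, the CLEAR element, which contains the E-box CACGTG.

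The mice received an osmotic minipump with saline or with Ancrod, a snake venom protease that depletes fibrinogen, at 2.4 U per day (2.0 mg/kg), 2 days before PT. At day 6 after PT, a square of right sensorimotor cortex about 5 mm wide, holding the lesion and the adjacent spared tissue, was dissected from each mouse for 3′ single-cell RNA sequencing. There were 4 saline (control) and 4 Ancrod (fibrinogen-depleted) mice with 1 library each. All 8 mice were labelled as female with the genotype Bl/J6, while the study's methods name C57BL/6N mice of both sexes, and their age was not used here. All had a PT lesion, so no uninjured level can be given. Replicates 1 to 3 of each group formed batch 1 of injury and sequencing, and replicate 4 of each group formed batch 2.

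Over all barcodes, the libraries held 97861434 to 122758649 UMIs in control and 126682918 to 142139441 UMIs in fibrinogen-depleted mice, without overlap. In the droplets kept by the UMI and mitochondrial limits, the groups overlapped. Median UMIs per droplet there were 10653 to 14406 in control and 13930 to 17575 in fibrinogen-depleted mice. After filtering, 44072 cells remained, with 4874 to 5962 per mouse. The cells were clustered without the lysosome genes and named from marker genes as microglia-like (17198 cells), inflammatory macrophage-like (3472), border-associated macrophage-like (615) and monocyte-like (837) among the phagocytes. The largest other classes were endothelial-like (6513), astrocyte-like (3818) and fibroblast-like (2266), and 5339 cells stayed unnamed. Summed microglia markers reached 3975 to 5020 counts per 1000000 UMIs (CPM) in microglia-like cells and 472 to 716 CPM in inflammatory macrophage-like cells. The inflammatory macrophage markers Arg1, Ms4a7, Mmp12, Fabp4, Thbs1 and Ecm1 summed to 1517 to 1992 CPM in their own class, 55.2 to 110 CPM in microglia-like cells and 1210 to 3651 CPM in monocyte-like cells, so that this list did not separate the macrophage-like from the monocyte-like class. Neutrophil markers had a summed median of 163 CPM in inflammatory macrophage-like cells but reached 2706 CPM in 1 mouse. Any pair of libraries shared 3 to 15 cell barcodes.

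Lysosome transcripts were most abundant in macrophages and microglia. In each mouse, the UMIs of the 40 genes were summed and divided by all UMIs of the class. They made up 4.21% of the UMIs of inflammatory macrophage-like cells (median of 8 mice, range 3.82 to 4.52%) and 3.58% of those of microglia-like cells (3.37 to 3.83%). The share was higher in the macrophage-like class in 8 of 8 mice, by a median ratio of 1.17, although the ranges over mice overlapped. Border-associated macrophage-like cells had 2.70% (2.49 to 2.77%) and monocyte-like cells 1.51% (1.40 to 1.70%), with no overlap among these and the 2 classes above them. Dendritic cell-like cells had a median share of 0.910%, fibroblast-like cells 0.798%, astrocyte-like cells 0.742% and neutrophil-like cells 0.720%. The order of these 4 classes was not constant: fibroblast-like cells exceeded astrocyte-like cells in 6 of 8 mice, and astrocyte-like cells exceeded neutrophil-like cells in 4 of 8. Endothelial-like cells had 0.372%, T or NK cell-like cells 0.284% and neuron-like cells, for which 6 mice gave a value, 0.195% (0.135 to 0.278%). Classes are clusters of the same cells, so levels between classes are given as a description and were not tested.

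**Figure D1:**
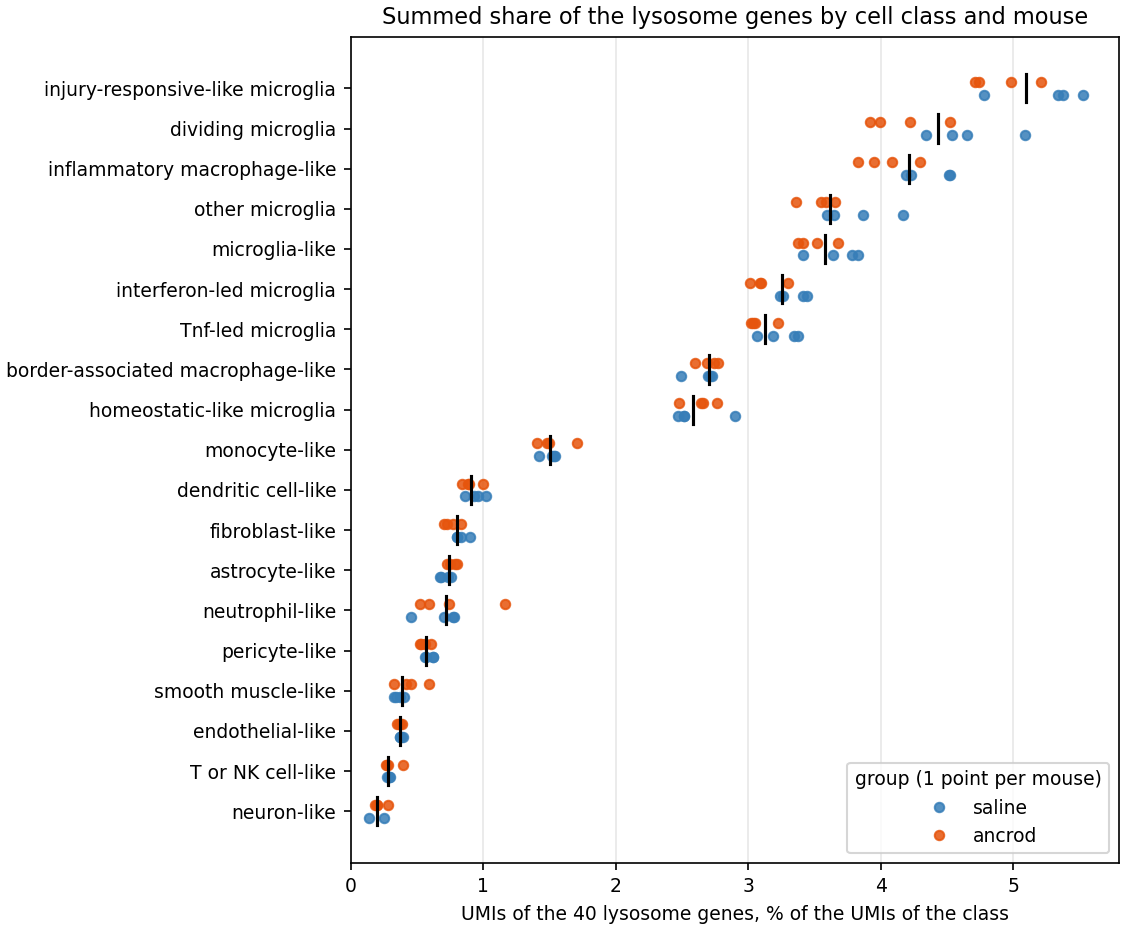
Share of each class's UMIs from the 40 lysosome genes (percent, horizontal axis) for each cell class and microglial state (rows), with 1 point per mouse, coloured by treatment, and the median as a bar. Injury-responsive-like microglia, dividing microglia and inflammatory macrophage-like cells lie highest, at medians of 5.09, 4.43 and 4.21%, and control and fibrinogen-depleted mice overlap within each of them.

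By median level, 16 of the 40 genes were highest in inflammatory macrophage-like cells, 12 in microglia-like cells and 9 in border-associated macrophage-like cells. The remaining members were Ctsk, highest in fibroblast-like cells, Laptm4a in pericyte-like cells and Cln3 in neutrophil-like cells, whose 46.0 to 122 CPM overlapped the 56.9 to 73.4 CPM of microglia-like cells. The range of the highest class overlapped that of the next class for 24 of the 40 genes: 8 of the 16, 8 of the 12, 7 of the 9, and Cln3. A gene was counted as higher or lower between a pair of classes where the ranges over the 8 mice did not overlap. Inflammatory macrophage-like cells were higher than microglia-like cells for 17 and lower for 7 of 40 members, while 21.1% of all genes compared were higher and 34.7% lower. Against monocyte-like cells they were higher for 26 and lower for 2 of 39 members, with 12.4% of all genes higher and 19.6% lower. Border-associated macrophage-like cells were lower than inflammatory macrophage-like cells for 13 and higher for 4 of 40 members, with 6.28% of all genes lower and 19.4% higher. Against microglia-like cells they were higher for 11 and lower for 11 of 38 members, with 18.7% of all genes higher and 14.2% lower. Microglia-like cells in turn were higher than astrocyte-like cells for 34 and lower for 2 of 38 members, Laptm4a and Npc1, while 29.8% of all genes were higher and 44.9% lower. Among 60 further lysosome genes listed for comparison, 29 were higher and 1 was lower in inflammatory macrophage-like than in monocyte-like cells, and 20 were higher and 16 lower than in microglia-like cells.

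Free RNA in the suspension reaches every droplet, and its part in each level was estimated from markers of the other lineages. The estimate was 1.55% of the UMIs of microglia-like and 1.34% of those of inflammatory macrophage-like cells (medians), but 3.52% in fibroblast-like and 6.44% in pericyte-like cells. For the phagocyte genes Ctss, Laptm5 and Cd68, the free RNA could account for 141%, 149% and 120% of the level in fibroblast-like cells and for 84%, 85% and 111% of that in astrocyte-like cells, so those levels were read as background. In microglia-like cells the same estimate was 0.661% of the Ctss level.

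Cathepsins are the proteases of the lysosome. Ctsd, the aspartyl protease cathepsin D, is on chromosome 7 (GRCm39, chr7:141929646-141941775, minus strand). Its level was 8859 to 10950 CPM in microglia-like cells (median 9503) and 8162 to 9751 CPM in inflammatory macrophage-like cells (median 9262). These ranges overlapped, and both lay above the 2988 to 4516 CPM of border-associated macrophage-like and the 612 to 1167 CPM of monocyte-like cells.

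Ctsb, the cysteine protease cathepsin B (chr14:63358384-63383372, plus strand), ranged from 6950 to 8838 CPM in inflammatory macrophage-like cells with a median of 7889. Microglia-like cells had 3333 to 4305 CPM and monocyte-like cells 1083 to 2078 CPM, without overlap. The macrophage-like level was 2.10-fold the microglia-like and 5.34-fold the monocyte-like level.

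Ctsl, which encodes cathepsin L, went the other way, with 2191 to 3005 CPM in microglia-like and 860 to 1696 CPM in inflammatory macrophage-like cells. Ctsf, cathepsin F, also differed between the phagocytes. It had a median of 96.7 CPM (90.1 to 114) in microglia-like cells, 30.9 to 52.3 CPM in border-associated macrophage-like cells and 4.79 CPM (3.85 to 5.94) in inflammatory macrophage-like cells, and reached 81.1 CPM in astrocyte-like cells. Ctss, the cathepsin of antigen presentation, had 3777 CPM in microglia-like and 3651 CPM in macrophage-like cells with overlapping ranges, and 1934 CPM in monocyte-like cells. Ctsc, which activates granule proteases of immune cells, was highest in border-associated macrophage-like cells at 1441 CPM and stood at 749 CPM in microglia-like and 544 CPM in inflammatory macrophage-like cells.

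Ctsk, the collagen-degrading cathepsin K (chr3:95406178-95416732, plus strand), was the protease that peaked in the fibroblast-like class. It had 222 to 386 CPM there (median 337) and 45.3 CPM in pericyte-like cells. Ctsl and Ctsb had higher levels in fibroblast-like cells, at 805 and 707 CPM. In inflammatory macrophage-like cells it varied from 2.14 to 155 CPM between mice. Looked at after these values were seen, 6 of the 3472 macrophage-like cells, each with 20 or more Ctsk UMIs, held 3766 of the 4152 Ctsk UMIs of the class. A single cell of fibrinogen-depleted mouse 2 held 2206 of them, and the 6 cells came from 5 mice of both groups. Their summed counts gave 9504 CPM for Ctsk, 4901 CPM for Acp5, the tartrate-resistant acid phosphatase, 2413 CPM for Mmp9, a gelatinase, and 1161 CPM for Atp6v0d2, against 3.80, 145, 0.955 and 63.2 CPM in the other cells of the class. Their Dcn level was 0 and their Col1a1 level 20.2 CPM. These sums do not describe each cell alike. Mmp9 was 7492 CPM in the cell of fibrinogen-depleted mouse 2 and 7855 CPM in that of control mouse 2, but 0 in that of control mouse 4 and 18.6 CPM in that of control mouse 3, whose Ctsk level was 251 CPM.

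**Figure D2:**
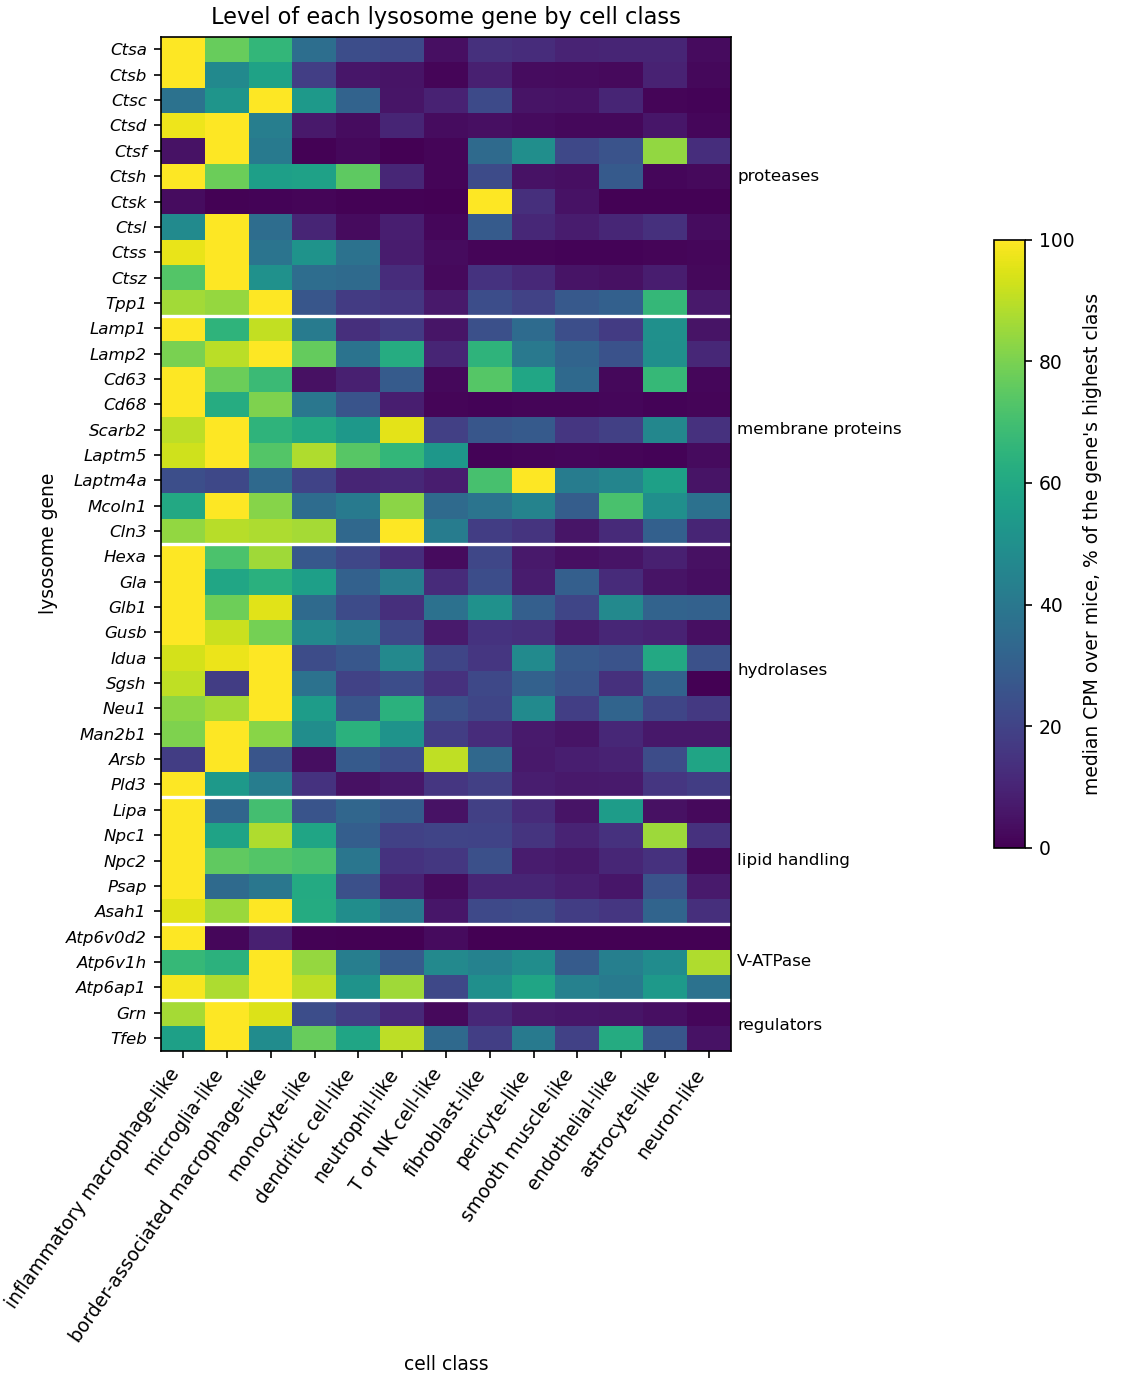
Median level over mice of each of the 40 lysosome genes (rows, grouped by role) in each cell class (columns), as a percent of the gene's highest class. Most rows peak in the microglia-like, inflammatory macrophage-like or border-associated macrophage-like columns, and Ctsk peaks in fibroblast-like cells.

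Among the membrane proteins, Cd68, the phagocyte sialomucin, was highest in inflammatory macrophage-like cells, at 773 CPM (704 to 938), followed by border-associated macrophage-like cells at 625 CPM (562 to 732) and microglia-like cells at 479 CPM (393 to 530). Lamp1, a major glycoprotein of the lysosomal membrane, had medians of 1683, 1528 and 1092 CPM in these classes. For both genes the ranges of the macrophage classes overlapped, and both lay above that of microglia-like cells. Cd63, a tetraspanin of late endosomes, was not limited to phagocytes. Its median was 1634 CPM in inflammatory macrophage-like, 1268 CPM in microglia-like, 1202 CPM in fibroblast-like and 1097 CPM in astrocyte-like cells, but 70.6 CPM in monocyte-like cells and 33.8 CPM in endothelial-like cells. The monocyte-like and macrophage-like ranges, 46.7 to 110 and 1431 to 1858 CPM, lay far apart. Laptm4a was higher in pericyte-like (1085 CPM), fibroblast-like (771 CPM) and astrocyte-like cells (615 CPM) than in microglia-like cells (237 CPM). Its relative Laptm5, a negative regulator of immune receptors, had 956 CPM in microglia-like and 506 CPM in T or NK cell-like cells. Mcoln1, the lysosomal calcium channel TRPML1, had a median of 20.6 CPM in microglia-like and 12.4 CPM in inflammatory macrophage-like cells.

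The other hydrolases are mostly glycosidases and sulfatases, which remove sugars and sulfate groups from glycans. Of these 10 genes, 5 were higher and 1 was lower in inflammatory macrophage-like than in microglia-like cells. Sgsh, the sulfamidase of heparan sulfate breakdown, had 18.9 to 24.5 CPM in macrophage-like and 2.59 to 4.82 CPM in microglia-like cells, a 5.02-fold difference. Arsb, the arylsulfatase of dermatan and chondroitin sulfate, was the lower gene, with 38.0 to 61.5 CPM against 228 to 303 CPM. Arsb was also high in T or NK cell-like cells, at 242 CPM, and lowest in monocyte-like cells, at 10.5 CPM.

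The 5 lipid-handling members were all higher in inflammatory macrophage-like than in microglia-like cells. Lipa, the lysosomal acid lipase that hydrolyses cholesteryl esters, had 386 to 494 CPM against 117 to 155 CPM, a 3.06-fold difference. Endothelial-like cells followed the macrophages with 247 CPM of Lipa, of which free RNA could account for about 1%. Psap, the precursor of the saposins (chr10:60113431-60138380, plus strand), had 3261 to 4369 CPM in macrophage-like, 2228 to 2400 CPM in monocyte-like and 1170 to 1434 CPM in microglia-like cells, with no overlap. Npc1 and Npc2, which export cholesterol from the lysosome, were 1.72-fold and 1.32-fold higher in macrophage-like than in microglia-like cells. Npc1 was also high in astrocyte-like cells, at 131 CPM. Asah1, the acid ceramidase, differed by 1.13-fold.

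Atp6v0d2, a subunit of the proton pump (chr4:19876838-19922614, minus strand), was close to restricted to inflammatory macrophage-like cells. Its level there was 36.5 to 101 CPM (median 80.7), against 0.251 to 2.66 CPM in microglia-like and 2.92 to 18.7 CPM in border-associated macrophage-like cells. The pump members Atp6v1h and Atp6ap1 overlapped between macrophage-like and microglia-like cells, with 114 and 109 CPM for Atp6v1h. Of the regulators, Grn, which encodes progranulin, had overlapping ranges in microglia-like (1394 CPM), border-associated macrophage-like (1318 CPM) and inflammatory macrophage-like cells (1208 CPM). Tfeb itself (chr17:48047837-48103348, plus strand) was lower in inflammatory macrophage-like cells, at 32.4 to 40.7 CPM, than in microglia-like cells, at 53.9 to 71.2 CPM.

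Within the microglia-like class, the lysosome share followed cell state. It was 2.58% (2.47 to 2.90%) in 6029 homeostatic-like cells and 5.09% (4.71 to 5.53%) in 2411 injury-responsive-like cells, a state named from Spp1, Lpl, Gpnmb, Itgax and other markers that are no lysosome members. The ratio of the shares was 1.72 to 2.19 in the 8 mice. The injury-responsive-like share was also above that of inflammatory macrophage-like cells in 8 of 8 mice, by a median ratio of 1.21. Gene by gene, the set was not higher as a whole: 9 of 40 members were higher, 8 lower and 23 overlapped. Of all genes, 18.9% were higher and 14.4% lower. Clusters led by interferon genes (3.25%) and by Tnf (3.13%) lay between the homeostatic-like and injury-responsive-like states. Their order varied, with the interferon-led share higher in 5 of 8 mice. Dividing microglia had 4.43%. The median injury-responsive-like cell had 26802 UMIs and the median homeostatic-like cell 11927, and the part of this depth difference in the result was not tested. Microglia-scoring clusters with low UMIs stayed unnamed and are in none of these states. They include 1891 cells and 924 cells, the latter led by Cd5l, Apoc4, Cst7 and Spp1.

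Of the 37 members with enough counts in these states, 18 were higher and 4 lower in injury-responsive-like than in homeostatic-like cells, and 15 overlapped. Of all genes, 18.5% were higher and 33.1% lower. The median log2 ratio was 0.29 for the 37 members and -0.20 for all genes compared. In the summed share, abundant genes such as Ctsd and Ctsb weigh most. Ctsd had 4936 to 6111 CPM (median 5370) in homeostatic-like cells and 15434 to 18691 CPM (median 16537) in injury-responsive-like cells, a 3.08-fold difference. Cd63 was 3.34-fold higher, with 646 and 2157 CPM, Ctsb 3.26-fold, with 2023 and 6592 CPM, and Cd68 2.97-fold, with 267 and 792 CPM. Pld3, an endolysosomal nuclease, was 3.26-fold higher. The order over states was alike for Ctsd, Ctsb and Cd63: homeostatic-like cells were lowest, the interferon-led and Tnf-led clusters intermediate, and dividing and injury-responsive-like cells highest.

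The 4 members that were lower included Tfeb, with 71.7 to 103 CPM (median 93.1) in homeostatic-like and 31.5 to 42.3 CPM (median 36.0) in injury-responsive-like cells. Mcoln1 fell on the same side, with medians of 26.5 and 14.3 CPM. Ctsf had 118 and 72.7 CPM, and Man2b1, the lysosomal alpha-mannosidase, had 413 and 271 CPM. By role, 6 of 10 proteases were higher and 1 lower, as were 3 and 1 of 9 membrane proteins, 4 and 1 of 9 hydrolases and 3 and 0 of 5 lipid genes. Of the further lysosome genes, 27 of 60 were higher and 15 lower.

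**Figure D3:**
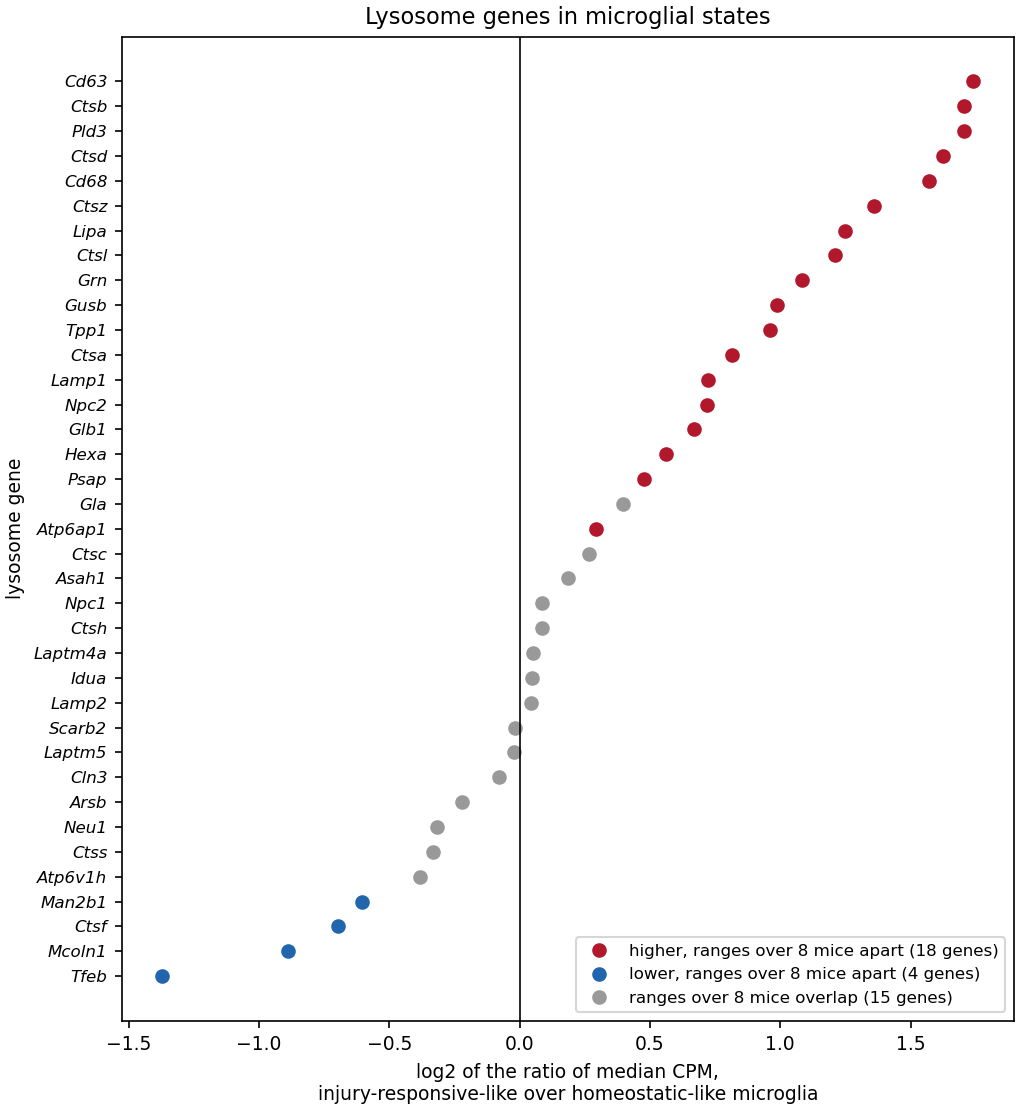
Log2 ratio of the median CPM in injury-responsive-like over homeostatic-like microglia (horizontal axis) for each of the 37 lysosome genes compared (rows), coloured by whether the ranges over 8 mice overlap. Cd63, Ctsb, Pld3 and Ctsd lie highest among the 18 higher genes, and the 4 lower genes are Tfeb, Mcoln1, Ctsf and Man2b1.

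The promoters of the members were searched for the CLEAR element in GRCm39, from 250 bases before to 50 bases after the start of the GENCODE canonical transcript, on both strands. The full palindrome, CACGTG with GT before it and AC after it, was in 1 of 40 member promoters, that of Cln3, and in 0.326% of 21770 protein-coding promoters. Allowing 1 mismatch outside the central CACGTG, it was in 6 of 40 members, in 6 of 60 further lysosome genes and in 1.44% of all promoters. The shorter form is CACGTG with T before it and A after it, and lies inside the palindrome. It was in 4 of 40 members and 1.11% of all promoters. CACGTG alone, which lies inside both, was in 10 of 40 and 7.81%. Among the 16134 protein-coding genes tested in the sums over all cells, the shares of these 4 forms, in the same order, were 0.434, 1.86, 1.43 and 9.19%. The 6 promoters with the element or its form with 1 mismatch were chosen by this motif alone. They are shown from 150 bases before the start to 30 bases after it, on the strand of the gene. Capitals mark the 10-base element and any further CACGTG that is complete in the stretch shown.
Ctsb, chr14:63359727-63359906, plus strand: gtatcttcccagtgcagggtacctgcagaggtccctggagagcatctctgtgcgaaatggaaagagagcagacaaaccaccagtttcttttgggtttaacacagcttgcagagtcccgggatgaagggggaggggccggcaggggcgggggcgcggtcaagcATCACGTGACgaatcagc
Lamp1, chr8:13208971-13209150, plus strand: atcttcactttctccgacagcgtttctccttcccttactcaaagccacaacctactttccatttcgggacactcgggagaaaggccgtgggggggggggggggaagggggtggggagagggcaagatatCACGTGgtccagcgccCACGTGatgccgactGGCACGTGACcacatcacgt
Mcoln1, chr8:3550302-3550481, plus strand: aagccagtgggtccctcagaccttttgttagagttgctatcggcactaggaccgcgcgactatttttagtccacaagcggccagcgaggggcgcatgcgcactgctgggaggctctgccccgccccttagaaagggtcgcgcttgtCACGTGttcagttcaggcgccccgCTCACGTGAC
Cln3, chr7:126182390-126182569, minus strand: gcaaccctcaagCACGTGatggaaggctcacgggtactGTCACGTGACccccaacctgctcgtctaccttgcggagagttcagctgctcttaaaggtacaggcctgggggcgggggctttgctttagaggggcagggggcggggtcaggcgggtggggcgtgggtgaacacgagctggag
Gla, chrX:133501875-133502054, minus strand: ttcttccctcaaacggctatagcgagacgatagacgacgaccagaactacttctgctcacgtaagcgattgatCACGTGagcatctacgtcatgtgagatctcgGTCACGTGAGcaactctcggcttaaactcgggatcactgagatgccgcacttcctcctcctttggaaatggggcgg
Glb1, chr9:114229994-114230173, plus strand: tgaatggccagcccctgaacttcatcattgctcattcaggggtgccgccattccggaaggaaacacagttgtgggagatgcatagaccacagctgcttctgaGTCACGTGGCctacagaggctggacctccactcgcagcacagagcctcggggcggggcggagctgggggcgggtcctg
Lamp1 held 4 copies of CACGTG in the 300 bases, 3 of them complete in the stretch shown, and Mcoln1, Cln3 and Gla 2 copies each. Of these 6 genes, Ctsb, Lamp1 and Glb1 were higher and Mcoln1 was lower in injury-responsive-like microglia, while Gla and Cln3 overlapped. Over all members with CACGTG, 4 were higher and 2 lower of 9 compared, and over those without it 14 were higher and 2 lower of 28. The motif is a match of letters and says nothing of whether TFEB bound there.

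Ancrod and saline were compared for every gene on UMIs summed per mouse within a class, with edgeR's quasi-likelihood test and p-values adjusted over all genes. The values in this comparison are CPM on normalised library sizes. No member passed an adjusted p of 0.05 in the sums over all cells, where 0.0124% of all genes did, nor in any of the 7 classes tested, where the share of all genes called was 0.00784% in fibroblast-like cells and 0% in the other 6. At an unadjusted p under 0.05, there were 8 of 40 members in the sums over all cells, where 16.7% of all genes were also under it. The counts among the phagocytes were 1 of 40 members in microglia-like cells (4.17% of all genes), 4 of 40 in inflammatory macrophage-like cells (2.84%), 0 of 39 in border-associated macrophage-like cells (5.38%) and 2 of 35 in monocyte-like cells (5.08%). In the other classes they were 8 of 39 in fibroblast-like cells (13.5% of all genes), 4 of 39 in endothelial-like cells (7.13%) and 1 of 39 in astrocyte-like cells (4.12%). DESeq2 called 2 members in the sums over all cells, Tfeb and Mcoln1, both lower with Ancrod. These were 5% of the members, beside 821 of 16186 genes (5.07%) that DESeq2 called there. It called 0 members in each class, beside 173 of 12747 genes in fibroblast-like cells and 1 to 13 genes in each of the other 6 classes. None of the further lysosome genes was called by edgeR in any class, and 10 of 60 in the sums over all cells had an unadjusted p under 0.05, the same 16.7% as of all genes. In each class or microglial state 0 to 6 of them did. The difference in response between inflammatory macrophage-like and microglia-like cells was also tested, and again no member passed, beside 0.00769% of all genes. Ctsl was the only member with an unadjusted p under 0.05 in that test (log2 difference -0.27 ± 0.11 (SE), adjusted p = 0.924), beside 4.75% of all genes. DESeq2 called 0 of 12997 genes there, with 2 of 40 members and 3.12% of all genes at an unadjusted p under 0.05.

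In inflammatory macrophage-like cells, the lysosome share was 4.37 ± 0.180% in control and 4.04 ± 0.203% in fibrinogen-depleted mice (mean ± SD, n = 4 each). The groups overlapped, with 4.23, 4.52, 4.19 and 4.52% against 3.95, 3.82, 4.08 and 4.30%. The difference was -0.363 percentage points in batch 1 (3 mice per group) and -0.228 in batch 2 (1 mouse per group). In microglia-like cells the shares were 3.66 ± 0.188% and 3.49 ± 0.135%, and in border-associated macrophage-like cells 2.66 ± 0.109% and 2.70 ± 0.0754%. Inflammatory macrophage-like cells themselves made up 5.94 ± 1.25% of the cells recovered from control and 9.74 ± 1.34% of those from fibrinogen-depleted mice. The class compared was thus larger after Ancrod. The paper's methods report such a trend for macrophages and call easier dissociation after less fibrosis its likely reason. The free RNA estimate was 0.793 to 1.97% of the UMIs of this class in control and 1.29 to 2.19% in fibrinogen-depleted mice. Its summed border-associated macrophage markers had means of 788 and 701 CPM, and monocyte markers 341 and 325 CPM. Inflammatory macrophage markers had 1689 and 1752 CPM, and microglia markers 583 and 605 CPM. Ranges overlapped for each list. The part of these in the share difference was not tested.

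The median log2 fold change of the 40 members in inflammatory macrophage-like cells was -0.13, and 4 of them were above 0, while 51.5% of all 11358 genes tested were above 0. In microglia-like cells the median was -0.04, with 11 of 40 above 0 and 49.7% of all genes above 0. Members whose control and fibrinogen-depleted mice did not overlap are given next, with the share of all genes that did the same.

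In inflammatory macrophage-like cells there were 2 such members, both lower with Ancrod, as were 0.766% of all genes. Tfeb had 40.3, 40.8, 38.8 and 40.9 CPM in control mice and 31.6, 31.6, 32.9 and 38.3 CPM in fibrinogen-depleted mice. The fibrinogen-depleted mouse 4 lay close below the lowest control mouse. The log2 fold change was -0.26 ± 0.08 (SE). Psap had 3961, 4460, 3765 and 4372 CPM against 3595, 3145, 3740 and 3755 CPM, a log2 fold change of -0.22 ± 0.08 (SE). For Psap, the gap between the groups was far smaller than the spread within either. The adjusted p of both was 1.00 (edgeR). No member was higher without overlap, beside 1% of all genes.

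Ctsk showed the largest fold in this class, 1.99 ± 1.06 (log2, SE), with overlapping groups. Its values were 2.55, 17.1, 5.22 and 31.8 CPM in control and 4.57, 149, 73.5 and 2.16 CPM in fibrinogen-depleted mice. The high values belong to the mice that held the few cells with many Ctsk UMIs.

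**Figure D4:**
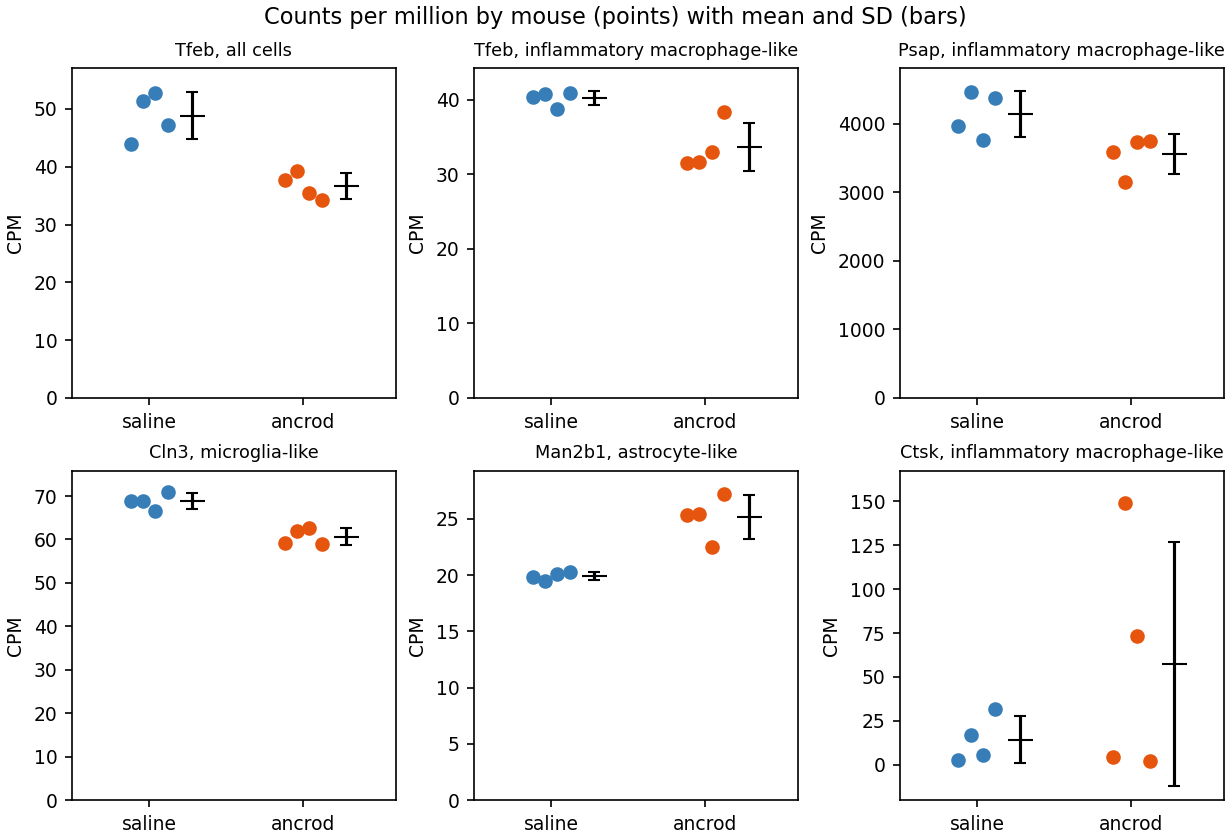
Level of selected lysosome genes (CPM on normalised library sizes, vertical axis) in control and fibrinogen-depleted mice, with 1 point per mouse and the group mean and SD (n = 4). Tfeb lies lower in each fibrinogen-depleted than in each control mouse in the sums over all cells and in inflammatory macrophage-like cells, and neither difference passed an adjusted p of 0.05.

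In microglia-like cells, Cln3, a lysosomal membrane protein whose loss causes juvenile neuronal ceroid lipofuscinosis, was the only member without overlap, beside 0.952% of all genes that were lower and 1.13% that were higher in this way. It had 69.0, 68.9, 66.5 and 71.0 CPM in control and 59.1, 62.0, 62.6 and 58.9 CPM in fibrinogen-depleted mice. The log2 fold change was -0.18 ± 0.06 (SE, edgeR adjusted p = 0.942). The same gene did not overlap within homeostatic-like cells (log2 fold change -0.17, adjusted p = 0.630) and injury-responsive-like cells (-0.19, adjusted p = 1.00), which are subsets of the same class and where 0.648% of all genes were lower without overlap in the latter. In injury-responsive-like cells Gla, the alpha-galactosidase, and Ctsa were the other members lower without overlap (-0.18 and -0.16), and 0.953% of all genes were higher. Tfeb was lower within homeostatic-like microglia too, with 91.2, 98.5, 102 and 101 CPM against 76.3, 90.4, 84.1 and 84.8 CPM (log2 fold change -0.23 ± 0.08, adjusted p = 0.630). Here Tpp1, a tripeptidyl peptidase, was higher (0.14), and 2.02% of all genes were lower and 2.41% higher without overlap. In the Tnf-led cluster Mcoln1 and Ctsa were lower, beside 1.11% of all genes lower and 0.983% higher, and in the interferon-led cluster no member was apart, beside 1.34% lower and 1.48% higher. No member was called in the 4 microglial states tested, and the members at an unadjusted p under 0.05 were 3 of 40 in homeostatic-like cells (7.82% of all genes), 3 of 40 in injury-responsive-like cells (2.20%), 1 of 39 in the Tnf-led cluster (3.37%) and 1 of 38 in the interferon-led cluster (4.16%).

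In monocyte-like cells the 3 members without overlap were higher with Ancrod, as were 1.72% of all genes, and 1.62% were lower. Ctsd had 643, 651, 623 and 663 CPM in control and 745, 1185, 834 and 680 CPM in fibrinogen-depleted mice (log2 fold change 0.42 ± 0.15, adjusted p = 0.953). Arsb and Cln3 had log2 fold changes of 0.40 and 0.32. This class held as few as 21 cells in a mouse. Its summed inflammatory macrophage markers had a mean of 1850 CPM (1210 to 2121) in control and 2451 CPM (1759 to 3651) in fibrinogen-depleted mice, and its monocyte markers 5430 and 4705 CPM. The free RNA estimate reached 3.78% of the UMIs of this class in fibrinogen-depleted mouse 2, the mouse with the highest Ctsd, and came to 12.8% of the Ctsd level at the median. The part of these in the Ctsd difference was not tested. In border-associated macrophage-like cells, Npc1 was higher (0.23), and Man2b1 (-0.15) and Ctsa (-0.10), a carboxypeptidase that protects lysosomal glycosidases, were lower, with adjusted p values of 0.903 to 0.955 (edgeR). There, 1.76% of all genes were higher and 1.62% lower without overlap.

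Outside the phagocytes, Man2b1 was higher in astrocyte-like cells, with 19.8, 19.5, 20.1 and 20.3 CPM in control and 25.4, 25.4, 22.5 and 27.2 CPM in fibrinogen-depleted mice (log2 fold change 0.34 ± 0.10, edgeR adjusted p = 1.00). Lipa (0.22) and Psap (0.18) were also higher and Neu1, a sialidase, lower (-0.18) without overlap, beside 1.19% of all genes that were higher and 1.54% lower. For Lipa, fibrinogen-depleted mouse 1 had 26.5 CPM and the others 19.9 to 20.7 CPM, close above the 18.1 to 19.8 CPM of control mice. The median log2 fold change of members in astrocyte-like cells was 0.09, with 33 of 39 above 0 and 49.1% of all genes above 0. In this class, the free RNA estimate was 18.4% of the Man2b1, 12.9% of the Lipa, 6.27% of the Neu1 and 2.75% of the Psap level. Summed border-associated macrophage markers had a mean of 3.47 CPM (2.24 to 5.20) in control and 8.82 CPM (2.96 to 24.8) in fibrinogen-depleted mice, and the means were 26.3 and 30.6 CPM for inflammatory macrophage markers, 33.5 and 38.8 CPM for monocyte markers and 112 and 107 CPM for microglia markers. The part of these in the astrocyte-like differences was not tested. In fibroblast-like cells the median was -0.13, with 10 of 39 members and 49.5% of all genes above 0. Ctsa was lower without overlap there (-0.21, adjusted p = 0.307), beside 4.12% of all genes lower and 3% higher. Ctsk, which peaked in this class, had overlapping groups there. Summed monocyte markers (Ly6c2, Ccr2, Plac8, Chil3, F10 and Vcan) in fibroblast-like cells had a mean of 445 CPM (367 to 490) in control and 340.5 CPM (268 to 382) in fibrinogen-depleted mice. Means were 304 and 266 CPM for microglia markers, 423 and 393 CPM for inflammatory macrophage markers and 7.71 and 12.2 CPM for border-associated macrophage markers. The monocyte list had a summed median of 375 CPM in this class, but 13.5 CPM in endothelial-like and 5.88 CPM in microglia-like cells. Which genes of each list gave these sums was not separated, so they are not read as RNA of monocytes or other phagocytes. The free RNA estimate, which was too high for some genes in this class, was 1.91 to 4.13% of its UMIs in control and 3.05 to 6.06% in fibrinogen-depleted mice. The class made up 3.09% of control and 7.33% of fibrinogen-depleted cells (means), with 41 cells in control mouse 3. The part of these in the fibroblast-like differences was not tested. In endothelial-like cells, Ctsh, a cathepsin with aminopeptidase activity, was lower (-0.19, adjusted p = 0.671), beside 1.76% of all genes lower and 1.88% higher. This class held 946 to 1194 cells per control and 362 to 748 per fibrinogen-depleted mouse. Its cluster led by Ackr1 and Selp held 76 to 155 and 93 to 135 of them. The part of this mix of clusters in the Ctsh difference was not tested.

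In the sums over all cells, in which fewer cells of a type and less RNA per cell cannot be told apart, 36 of 40 members had a log2 fold change below 0 and the median was -0.19, while 49.7% of all genes were above 0. Tfeb had 44.0, 51.5, 52.8 and 47.3 CPM in control and 37.7, 39.3, 35.5 and 34.3 CPM in fibrinogen-depleted mice, a log2 fold change of -0.41 ± 0.08 (edgeR adjusted p = 0.152). Mcoln1 (-0.33, adjusted p = 0.172) and Ctsf (-0.28, adjusted p = 0.200) were the other members without overlap, and 6.65% of all genes were lower and 3.58% higher in this way. Ctsk was higher by 1.05 with overlapping groups. Summed microglia markers were 2051 to 2093 CPM in control and 1534 to 1763 CPM in fibrinogen-depleted mice, endothelial-like cells made up 19.4% and 10.3% of cells, and homeostatic-like microglia, the state with the most Tfeb, made up 17.3% and 10.1%. The part of these shares in the all-cell differences was not tested. With cells thinned to 5000 UMIs, which left out 3853 control and 3821 fibrinogen-depleted cells below that depth, the median over all cells was -0.06 and 10 members were above 0. This setting both dropped cells and equalised depth, and their parts were not tested. The number of members at an unadjusted p under 0.05 ranged from 3 to 22 when single mice were left out, with 22 of 40 without control mouse 1, where 15.9% of all genes were under it. In these fits the share of all genes ran from 10.1 to 20.4%, and no member passed the adjusted threshold.

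**Figure D5:**
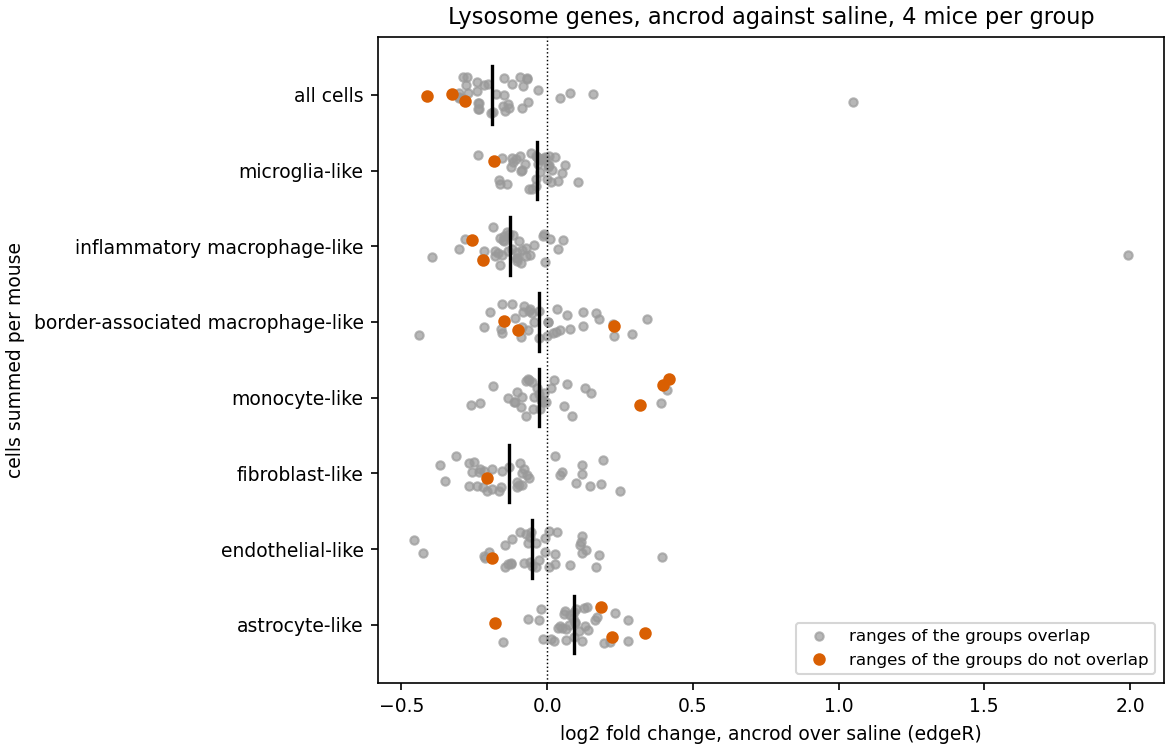
Log2 fold change of each lysosome gene, Ancrod against saline (horizontal axis), by cell class (rows), with 1 point per gene, the median of the members as a bar, and the genes whose groups do not overlap in orange. No point passed an adjusted p of 0.05, and the member medians run from -0.19 in the sums over all cells to 0.09 in astrocyte-like cells.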

How the data were processed

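Single-cell libraries (10x 3′ v3.1) of 4 saline and 4 Ancrod mice were analysed, each mouse being a replicate. The authors deposited raw UMI counts per gene and barcode, made with Cell Ranger 7.1.0 and STAR on GRCm39, with intronic reads counted; 3′ counts do not separate isoforms, and the cell suspension had lost meninges, myelin and red cells. Droplets with at least 2000 UMIs and under 20% mitochondrial UMIs were kept (46216). Scrublet scored doublets, and 0.8% per 1000 cells were removed by score (2144). Clustering used 3000 variable genes without the 40 members or the 60 further lysosome genes, 20 principal components and Leiden at resolution 2 (scanpy 1.11.5, leidenalg 0.10.2). Clusters were named "-like" from markers where at least 3 were detected and the next class scored at most 0.6 of the best; these naming thresholds were set after seeing the data, and names rebuilt in this way may differ from the study's. The members, lists and markers were chosen with earlier results of these data known.

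Levels between classes are UMIs per 1000000 UMIs of the class (CPM), summed per mouse with at least 10 cells; a pair of classes was compared for genes with a mean of at least 5 CPM. Free RNA was estimated from droplets of at most 100 UMIs, as the median over other lineages' markers with at least 200 UMIs there. Ancrod and saline were compared with edgeR 4.0.16 (R 4.3.3; filterByExpr, TMM, quasi-likelihood test) on summed UMI counts, with Benjamini-Hochberg adjustment over all genes and a threshold of 0.05. The interaction test used the mouse as a block. DESeq2 1.42.0 was an alternative. Named in each class were members past the threshold and the 3 largest rises and falls among members whose groups did not overlap. The scripts were tested on simulated data. Promoters were read from GRCm39 with GENCODE vM39; 1 member lies on chromosome 18 and none of its sequence is given. Alternatives were other normalizations and filters, DESeq2, batch as a term, the replicate number as a block, leaving out mice, thinning to 5000 UMIs, 4000 UMIs as the minimum, doublets kept and resolution 1. Same-numbered mice did not deviate together (correlations -0.262, -0.0504, -0.00795 and 0.0215), so the numbers were not treated as pairs.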

Additional observations from a re-analysis of the deposited data

Results flagged for a closer look

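In groups of 4 mice, the lowest or highest mouse was marked where its gap to the nearest other mouse, as a share of the group's range, passed Dixon's 95% critical value. Of 52 groups 4 were marked, where chance marks about 1 in 20. In control border-associated macrophage-like cells, the lysosome share of mouse 2 was 2.49%, and the other 3 mice had 2.70 to 2.73%. In the sums over all cells, Ctsf was 45.7 CPM in fibrinogen-depleted mouse 4 and 51.8 to 52.4 CPM in the other 3. In astrocyte-like cells, Lipa was 19.8 CPM in control mouse 1 against 18.1 to 18.3 CPM, and 26.5 CPM in fibrinogen-depleted mouse 1 against 19.9 to 20.7 CPM.

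For 3 members, all fibrinogen-depleted mice lay below all control mice in 1 class and above them in another, and the difference between the classes was not tested. How many of all genes did so was not counted. In the classes named here, 0.766 to 1.62% of all genes were lower in this way where the member was lower. Where it was higher, 1.19 to 1.72% of all genes were higher. Cln3 had a log2 fold change of -0.18 in microglia-like and 0.32 in monocyte-like cells. Man2b1 had -0.15 in border-associated macrophage-like and 0.34 in astrocyte-like cells. Psap had -0.22 in inflammatory macrophage-like and 0.18 in astrocyte-like cells.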

How the results depend on the processing

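Of 172 planned settings of the count of changed members, 171 gave 0. The exception was DESeq2 in the sums over all cells, with 2 members lower, beside 5.07% of all genes called; why the tools differ was not tested. With the replicate number as a block, 0 members were called in 8 fits, and at most 5 had an unadjusted p under 0.05, in inflammatory macrophage-like (5 of 40, beside 325 of all 11358 genes) and fibroblast-like cells (5 of 39, beside 1655 of 12747 genes). Of 115 recomputed share differences, 109 kept the sign of the main value. All 115 stayed within 1 SD of it, taking the larger group SD. Leaving out a single mouse cannot move a difference that far, so for those settings this outcome was fixed beforehand. Leaving out single mice moved the Ancrod minus saline share (percentage points) from -0.400 to -0.199 over all cells, -0.255 to -0.115 in microglia-like, -0.416 to -0.258 in inflammatory macrophage-like, -0.0124 to 0.0756 in border-associated macrophage-like, -0.0441 to 0.0562 in monocyte-like, -0.0958 to -0.0509 in fibroblast-like, -0.0145 to -0.00341 in endothelial-like and 0.0405 to 0.0678 in astrocyte-like cells. Fits within microglial states were chosen after seeing the data: the share difference was -0.170 in all microglia-like cells, 0.0351 in homeostatic-like cells alone and -0.345 in injury-responsive-like cells alone. It was also below 0 in the interferon-led (-0.217), Tnf-led (-0.162), dividing (-0.491) and remaining microglia (-0.283), and the groups overlapped in each state. Within batches, the sign of the share difference differed for border-associated macrophage-like (0.0888 and -0.100), monocyte-like (0.0690 and -0.138) and astrocyte-like cells (0.0743 and -0.00926). At resolution 1 and with doublets kept no monocyte-like class was found, so these settings gave no value for it. Depth limits the low-count members most in monocyte-like cells, which held as few as 21 cells in a mouse.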
